A study of Mus musculus with 10 samples.

Results

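The comparison described here is the knockdown of linc1253, a long non-coding RNA of mouse embryonic stem (ES) cells, against a control shRNA. ZHBTc4 ES cells were infected with pLKO shlinc1253 lentivirus or with pLKO control lentivirus, and their mRNA was sequenced 4 days later. Each group has 2 libraries, and these 4 libraries, chosen by their labels, are among 8 mRNA libraries and 10 libraries in the whole series. The study asked with them which genes depend on linc1253, a transcript that it places under the control of Oct4 and Pontin. ZHBTc4 is a line in which Oct4 is made from a transgene that tetracycline switches off, and the labels give no tetracycline for any of the 4 libraries. Both groups therefore share the conditional Oct4 and the lentiviral infection. The study's methods name 1 hairpin for linc1253, and a hairpin against luciferase for the control, so that the loss of linc1253 and other effects of that hairpin cannot be told apart. Nothing in the labels says that the libraries of a group came from separate infections, and p-values then measure the spread between these samples, which may be technical. How far the hairpin lowered linc1253 was not analysed here.

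Of 22713 listed genes, 13407 had a normalized read count above 1 CPM (CPM being reads of a gene scaled to the size of its library) in at least 1 library and were tested with limma on log2 of CPM plus 1. Reads on genes ranged from 21245831 to 37951742 per library, with knockdown replicate 1 the deepest. With p adjusted by Benjamini-Hochberg, 0.0% of the tested genes reached 0.05 in limma, where the smallest value was 0.265, while 496 genes were higher and 503 lower at an unadjusted p of 0.05. The quasi-likelihood test of edgeR on the whole reads behind the CPM also called 0 genes, and DESeq2 on the same reads called 22 upregulated and 28 downregulated genes, 0.209% and 0.265% of the 10547 genes to which it gave an adjusted p. Below, a gene is said to rise or fall when it passed an unadjusted p of 0.05 in limma and changed by at least 1.3-fold. These limits control no error rate over all genes. They were passed by 303 upregulated and 286 downregulated genes, 2.26% and 2.13% of the tested genes. All 50 genes called by DESeq2 were among them. Adjusted p-values of single genes are given below from DESeq2, and limma and edgeR called none of these genes. In 18.8% of the tested genes both knockdown libraries lay above both control libraries, and in 19.2% both lay below. The counts for each gene list are to be read against these shares.

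The libraries had the profile of ES cells. Oct4, listed as Pou5f1, had 642 and 582 CPM in the control libraries and 708 and 617 CPM in the knockdown libraries. Sox2 had 564 and 516 CPM in the control and 526 and 518 CPM after knockdown, and Nanog had 916 and 783 against 1002 and 886 CPM. The groups overlapped for all 3 genes. All 24 pluripotency genes of the list were tested, and the median log2-fold-change of the list was 0.08 (-0.01 to 0.10 without any 1 library). Gdf3 and Nr0b1 rose, and Fut9 fell. None of these 3 calls held without each library: Nr0b1 (0.47) was at 0.30 without control replicate 2 and 0.31 without knockdown replicate 1, and Fut9 (-0.40) was at -0.33 without control replicate 2 and kept -0.40 without either knockdown library, past the p limit in none of these fits. Gdf3 is described with its pathway. Dppa3 had the lowest value of the list, -0.72, which did not pass the limits. It was at -1.41 without control replicate 1 and at -1.23 without knockdown replicate 2.

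Knockdown replicate 2 stood apart from the other 3 libraries in many markers of feeder fibroblasts and primitive endoderm. Of 13 markers of feeder fibroblasts, on which ES cells can be grown, 8 were highest in this library. Some of these 8 are among the 5 markers that stayed at or below 1 CPM in all 4 libraries. Their summed level was 53.7 and 49.8 CPM in the control, 51.1 CPM in knockdown replicate 1 and 73.4 CPM in knockdown replicate 2. Lox, a collagen cross-linking enzyme, had 0.0461 and 1.29 CPM in the control, 0.155 CPM in knockdown replicate 1 and 7.98 CPM in knockdown replicate 2. Control replicate 2 was also above both replicate 1 libraries for Lox, and the median difference of control replicate 2 from control replicate 1 was 0.21 over the tested fibroblast markers and 0.16 over the extracellular matrix genes on the log2 scale. The most abundant markers went the other way: Thy1 had 33.5 and 27.4 CPM in the control and 33.6 and 26.9 CPM after knockdown, and Pdgfrb had 11.9 and 9.81 CPM against 9.72 and 7.54 CPM, both lowest in knockdown replicate 2. The defining fibroblast marker Fap was at 0 in all 4 libraries. Among 22 primitive endoderm genes, 16 were highest in knockdown replicate 2, with summed levels of 1464 and 1537 CPM in the control, 1487 CPM in knockdown replicate 1 and 1704 CPM in knockdown replicate 2. The same count was 1 of 17 for trophectoderm, 4 of 15 for primitive streak and 3 of 15 for neural ectoderm genes. The share of all tested genes that were highest in knockdown replicate 2 was not counted, so that these counts alone show no trait particular to the markers. The median log2 difference of knockdown replicate 2 from knockdown replicate 1 was -0.01 over all tested genes. It was 1.31 over the tested fibroblast markers and 0.45 over the tested primitive endoderm genes. The median log2-fold-change of the fibroblast list was 0.52 with all libraries and -0.19 without knockdown replicate 2, and that of 27 tested extracellular matrix genes was 0.25 with all libraries and -0.11 without that library. Col3a1 and Postn, members of both lists, were above 1 CPM in knockdown replicate 2 alone (1.27 and 1.89 CPM). They were tested only through that library, so that the filter itself adds to the difference. No member of the fibroblast, extracellular matrix or primitive endoderm list passed the limits with all 4 libraries. Without knockdown replicate 1, the medians of these lists were 1.12, 0.51 and 0.38. In bulk samples, a smaller share of cells of one type and less RNA per cell cannot be told apart. For the lists described below as lower or higher, the range of the median over the 4 fits that leave out 1 library is given. Such a fit has 1 library in a group, which is assumed to vary like the other group. A call it makes or loses thus rests on the spread of a single pair of libraries together with that of all genes. Same-numbered libraries also deviated together across genes (correlation of 0.673), and such a fit is unbalanced for the replicate number. A difference between replicate numbers then enters its fold changes. Peg3, for example, was at -1.54 without control replicate 1 and at 1.05 without control replicate 2.

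Of 42 gene lists, 21 had a median of 1 sign in all 4 pairs of a knockdown with a control library, and for 12 of these no library carried more than 50% of the median. Lower after knockdown were 7 of the 12: targets of the stress-response factor ATF4, enzymes of serine, glycine, proline and asparagine synthesis, cytosolic tRNA synthetases, targets of hypoxia-inducible factor (HIF), glycolytic enzymes, trophectoderm genes and DNA replication genes. Higher were 5: chaperones and the unfolded protein response of the endoplasmic reticulum, the Nodal and activin pathway, genes of the formative and primed state, genes of the two-cell-like state and primitive streak genes. The median log2-fold-change over all tested genes was within 0.01 of 0 in each pair. The plot of list medians shows that the 4 pairs lay close together for the ATF4 targets and wide apart for the fibroblast markers.

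**Figure D1:**
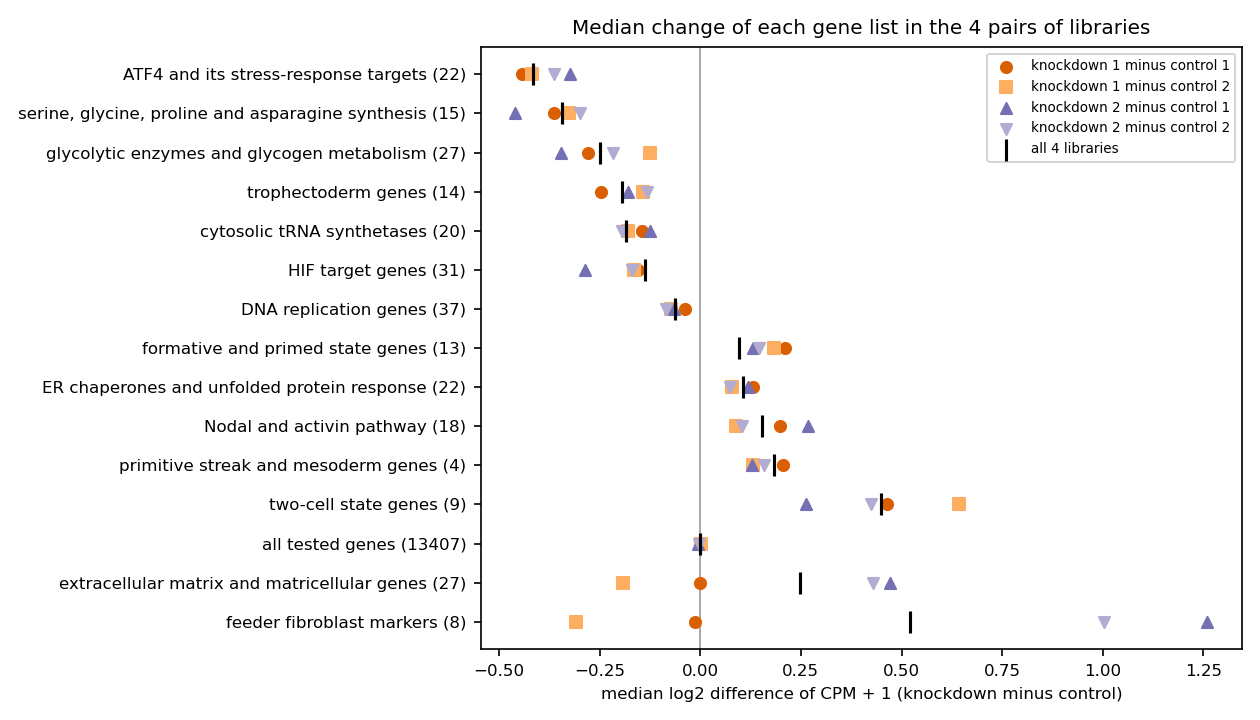
Median log2 difference of CPM plus 1 (horizontal axis, knockdown minus control) of the tested members of each gene list, whose number is in parentheses, for the 4 pairs of libraries (coloured points) and for all 4 libraries (black line). The 12 upper lists keep 1 sign in all pairs, from -0.42 for the ATF4 targets to 0.45 for the two-cell-like genes, and the 2 lowest lists lie above 0 in both pairs with knockdown replicate 2 and not in those with knockdown replicate 1 against control replicate 2.

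ATF4 is a transcription factor whose translation rises when the kinases of the integrated stress response, such as PERK and GCN2, phosphorylate eIF2 alpha. It switches on genes for amino acid synthesis and uptake, for the charging of tRNA and for the feedback on the stress itself. HIF is stabilized when prolyl hydroxylases lack oxygen, and it raises glycolysis, angiogenic signals and the sparing of mitochondrial respiration. ES cells rely strongly on glycolysis and on the metabolism of single amino acids.

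Genes of the ATF4 response were lower after knockdown. Of 23 listed genes, 22 were tested, 10 fell and 0 rose, and in 16 of them both knockdown libraries lay below both control libraries. The median log2-fold-change was -0.42 (-0.42 to -0.38 without any 1 library), and it was -0.44, -0.42, -0.32 and -0.36 in the 4 pairs. The member that was not tested, Fgf21, stayed below 1 CPM in all libraries. In the rest of the list 9 members had a negative and 3 a positive value.

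Chac1 (ENSMUSG00000027313, chr2:119176965-119180117 in NCBIM37, plus strand), an enzyme that degrades glutathione and a sensitive readout of ATF4, had 22.9 and 18.3 CPM in the control and 11.7 and 7.85 CPM after knockdown. These groups did not overlap. The log2-fold-change was -1.02 ± 0.21 (SE), with an adjusted p of 0.00618 from DESeq2. Ddit4, an inhibitor of the growth kinase mTORC1, had 126 and 98.2 CPM in the control against 58.7 and 63.2 CPM. This was a log2-fold-change of -0.86 ± 0.14, with an adjusted p of 1.21e-04 from DESeq2. Pck2, the mitochondrial enzyme that makes phosphoenolpyruvate, went from 51.2 and 44.6 CPM to 28.1 and 27.2 CPM. Its 2 knockdown libraries differed by less than 1 CPM. The pseudokinase Trib3, which restrains ATF4, had 33.9 and 28.2 CPM in the control and 19.9 and 19.2 CPM after knockdown, with an adjusted p of 0.0441 from DESeq2.

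Of the transcription factors of the response, Atf4, Ddit3 and Atf3 fell, and Cebpg and Atf5 did not pass the limits. Atf4 had 230 and 254 CPM in the control and 151 and 196 CPM after knockdown, a log2-fold-change of -0.49 ± 0.14, and without knockdown replicate 1 its value of -0.30 no longer passed the limits. Ddit3, which encodes the pro-apoptotic factor CHOP, had 11.6 and 9.68 CPM against 5.85 and 6.45 CPM. Atf3, a stress-induced repressor, had 2.68 and 2.84 CPM against 1.11 and 1.62 CPM. In all 3 genes the groups did not overlap. Stc2, Gpt2 and Vldlr completed the 10 members that fell, with log2-fold-changes of -0.69, -0.51 and -0.46. Vldlr was past neither limit without control replicate 2 (-0.34) or knockdown replicate 1 (-0.38). Members that did not pass the limits included Cebpg with -0.13, Sesn2 with -0.12, Cth with -0.05 and Atf5 with 0.05. Ppp1r15a, the phosphatase subunit that reverses the phosphorylation of eIF2 alpha, had 51.9 and 49.2 CPM in the control and 60.6 and 54.9 CPM after knockdown, and was not past the limits at 0.19 ± 0.10.

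**Figure D2:**
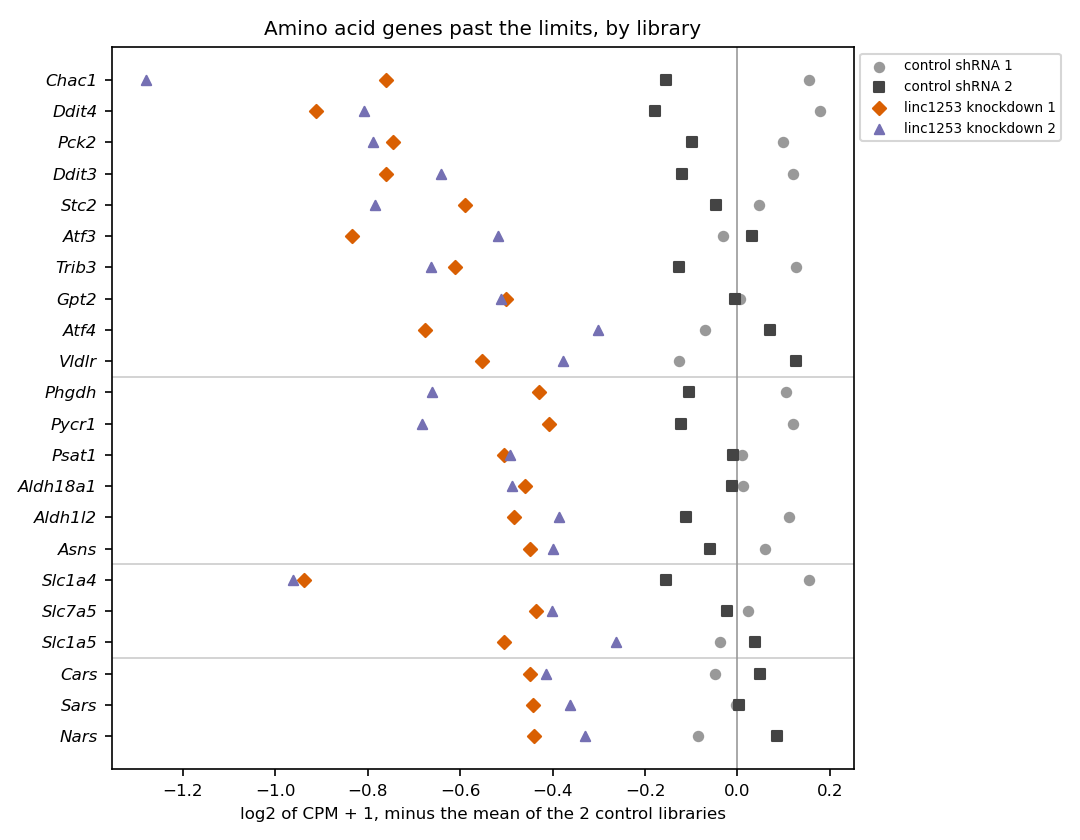
Level of each gene that passed the limits among the ATF4 targets (uppermost group), the enzymes of serine, glycine, proline and asparagine synthesis, the amino acid transporters and the cytosolic tRNA synthetases (lowest group), as log2 of CPM plus 1 minus the mean of the control libraries (horizontal axis). Each point is 1 library. In all 22 genes both knockdown libraries lay below both control libraries, farthest in Chac1, an order that the limits used to choose them favour.

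Promoter windows from RefSeq (GRCm38.p6, 250 bases before to 50 bases after a gene's start) were searched on both strands for TGATGNAA, the core of the element that ATF4 binds with C/EBP partners. Such a match was held by 2.27% of 13594 windows of tested genes and by 3.97% of all 32851 windows. Of the 19 ATF4 list members with a window, 7 held it in at least 1 window, and 2.75% of the tested genes with a window did. Of 10 members that fell, 5 held it: Chac1, Pck2, Atf3, Trib3 and Vldlr. The list was assembled from genes known as ATF4 targets, so that the matches describe its members and not the knockdown. Of 13 enzymes of serine, glycine, proline and asparagine synthesis with a window, 2 held a match, as did 2 of the 5 that fell. Among 13 amino acid transporters with a window, 3 held a match. The windows of Chac1, Trib3 and Pck2, and of Slc1a4 and Asns from the groups described next, are printed 5′ to 3′ on the gene's strand to show where the match lies, with the match in capitals.
Chac1 (chr2:119350992-119351291, plus strand): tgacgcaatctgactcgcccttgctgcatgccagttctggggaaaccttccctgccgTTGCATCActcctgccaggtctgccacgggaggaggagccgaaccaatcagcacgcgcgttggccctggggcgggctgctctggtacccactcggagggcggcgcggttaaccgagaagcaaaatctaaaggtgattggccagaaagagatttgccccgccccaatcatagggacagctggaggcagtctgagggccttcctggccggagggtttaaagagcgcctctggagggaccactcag
Trib3 (chr2:152344011-152344310, minus strand): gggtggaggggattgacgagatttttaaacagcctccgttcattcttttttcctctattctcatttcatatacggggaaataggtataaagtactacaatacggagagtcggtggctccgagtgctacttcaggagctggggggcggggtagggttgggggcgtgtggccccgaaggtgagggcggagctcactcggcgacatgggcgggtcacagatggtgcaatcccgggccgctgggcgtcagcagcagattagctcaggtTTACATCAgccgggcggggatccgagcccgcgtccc
Pck2 (chr14:55540016-55540315, plus strand): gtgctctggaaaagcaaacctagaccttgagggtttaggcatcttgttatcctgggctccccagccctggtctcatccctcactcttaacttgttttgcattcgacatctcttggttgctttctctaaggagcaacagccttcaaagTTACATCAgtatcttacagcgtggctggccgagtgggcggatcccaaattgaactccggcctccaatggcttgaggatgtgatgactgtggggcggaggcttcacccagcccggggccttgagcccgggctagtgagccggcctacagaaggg
Slc1a4 (chr11:20332664-20332963, minus strand): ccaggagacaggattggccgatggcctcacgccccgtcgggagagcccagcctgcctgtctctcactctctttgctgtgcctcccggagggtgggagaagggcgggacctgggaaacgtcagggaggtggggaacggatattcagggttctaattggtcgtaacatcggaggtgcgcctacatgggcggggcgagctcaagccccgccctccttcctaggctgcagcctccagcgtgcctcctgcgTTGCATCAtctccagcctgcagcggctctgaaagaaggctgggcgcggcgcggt
Asns (chr6:7693160-7693459, minus strand): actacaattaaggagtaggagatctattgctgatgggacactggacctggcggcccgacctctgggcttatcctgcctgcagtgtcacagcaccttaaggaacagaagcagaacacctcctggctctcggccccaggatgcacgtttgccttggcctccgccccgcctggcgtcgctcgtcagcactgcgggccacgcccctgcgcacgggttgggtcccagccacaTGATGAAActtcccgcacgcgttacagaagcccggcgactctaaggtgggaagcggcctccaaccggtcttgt
Counted from the gene's start, the matches began at -193 in Chac1, 14 in Trib3, -103 in Pck2, -4 in Slc1a4 and -23 in Asns.

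Enzymes that make amino acids moved the same way. All 15 enzymes of serine, glycine, proline and asparagine synthesis with their folate partners were tested, 6 fell and 0 rose, and both knockdown libraries lay below both controls in 13. The median log2-fold-change was -0.34 (-0.37 to -0.36 without any 1 library). Phgdh, which commits the glycolytic intermediate 3-phosphoglycerate to serine, had 162 and 140 CPM in the control and 111 and 94.8 CPM after knockdown. Psat1, the next enzyme of that route, had 392 and 387 CPM in the control and 274 and 277 CPM after knockdown, a log2-fold-change of -0.50 ± 0.08. The difference between the groups of Psat1 was many times that within them, with an adjusted p of 0.00759 from DESeq2. Psph, the last enzyme of serine synthesis, was below both controls in both knockdown libraries, but at -0.33 it did not reach the 1.3-fold limit, which it passed without control replicate 2 (-0.43) or knockdown replicate 1 (-0.39).

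On the proline side, Aldh18a1, which makes the precursor of proline, had 113 and 111 CPM in the control and 81.3 and 79.8 CPM after knockdown, with an adjusted p of 0.0446 from DESeq2. Pycr1, the mitochondrial enzyme that completes proline, had 33.3 and 27.96 CPM against 22.8 and 18.6 CPM. Its log2-fold-change was -0.54, and -0.41 without knockdown replicate 2, where it did not pass the limits. Asns, asparagine synthetase, had 276 and 254 CPM in the control and 194 and 201 CPM after knockdown, a log2-fold-change of -0.42 ± 0.09. Without control replicate 1 it was -0.36, under the 1.3-fold limit. Aldh1l2 and the mitochondrial folate enzyme Mthfd2 had log2-fold-changes of -0.43 and -0.35. Mthfd2 passed the limits only without control replicate 1 (-0.40). Aldh1l2 was under the 1.3-fold limit without control replicate 1 (-0.32). Without knockdown replicate 1 (-0.39) or knockdown replicate 2 (-0.48), Aldh1l2 was past the 1.3-fold limit but not the p limit.

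Amino acid transporters did not move as a group. Of 17 tested, 3 fell and 0 rose, and 7 lay below and 3 above both controls. The median was -0.02 (-0.19 to 0.12 without any 1 library), with mixed signs in the 4 pairs. Those that fell carry neutral amino acids. Slc1a4, which exchanges serine and alanine, had 46.0 and 36.9 CPM in the control and 21.0 and 20.7 CPM after knockdown, a log2-fold-change of -0.95 ± 0.13 with an adjusted p of 7.59e-05 from DESeq2. Slc7a5, the leucine carrier, had 370 and 358 CPM against 269 and 275 CPM, and its partner chain Slc3a2 had 265 and 255 CPM against 208 and 217 CPM, which at -0.29 was below the 1.3-fold limit. Slc1a5, a glutamine carrier, fell by 0.38 on the log2 scale, but by 0.35 without control replicate 2 and by 0.26 without knockdown replicate 1, past neither limit in the latter. The cystine carrier Slc7a11 had 7.70 and 7.44 CPM in the control and 9.59 and 7.41 CPM after knockdown, and its groups overlapped. Outside this list, the carriers Slc38a4 and Slc38a5 were among the largest changes and are given below.

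Cytosolic tRNA synthetases, which load each tRNA with its amino acid, shifted by less and in most members. All 20 were tested, 3 fell, 0 rose, and 15 lay below both controls with 0 above. The median was -0.18 (-0.17 to -0.11 without any 1 library). Cars, Sars and Nars, for cysteine, serine and asparagine, had log2-fold-changes of -0.43, -0.40 and -0.39. Cars had 149 and 159 CPM in the control and 113 and 115 CPM after knockdown. Without knockdown replicate 1, Sars at -0.36 was under the 1.3-fold limit and Nars at -0.33 was past neither limit, and without control replicate 2 Nars was at -0.30. At the other end, Qars, Wars, Hars and Rars lay between -0.01 and 0.04. For the synthetases with a promoter window, 5 of 13 held TGATGNAA. Sars, the only one of those that fell with a window, did not.

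HIF targets were lower after knockdown with a wider spread between members. Of 32 listed genes, 31 were tested, 7 fell and 0 rose, and 14 lay below both controls with 2 above. The median was -0.14 (-0.23 to -0.11 without any 1 library). Ndufa4l2 (ENSMUSG00000040280, chr10:126951995-126954208 in NCBIM37, plus strand), which lowers the activity of the respiratory chain under hypoxia, had the lowest log2-fold-change of all tested genes on the scale of log2 of CPM plus 1, with 11.4 and 9.33 CPM in the control and 4.36 and 3.46 CPM after knockdown. This was a change of -1.21 ± 0.17 on the log2 scale, with an adjusted p of 9.32e-04 from DESeq2. The groups were far apart compared with the difference inside each.

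Pdk1, the kinase that keeps pyruvate out of the mitochondria, had 177 and 200 CPM in the control and 106 and 128 CPM after knockdown, with an adjusted p of 0.00252 from DESeq2. Bnip3, which marks mitochondria for removal, had 92.8 and 80.5 CPM against 60.3 and 51.4 CPM. Vegfa, the angiogenic growth factor, had 43.5 and 37.3 CPM against 26.6 and 25.1 CPM. The 3 genes had log2-fold-changes between -0.69 and -0.62, and all were called by DESeq2. Egln3, a prolyl hydroxylase that HIF itself induces, had 22.7 and 21.9 CPM in the control and 15.1 and 13.3 CPM after knockdown. Bhlhe40 and Anxa2 fell by 0.52 and 0.49 on the log2 scale, and both were past neither limit without knockdown replicate 1, at -0.35 and -0.26. Without control replicate 1, Anxa2 was at -0.45 and not past the p limit. Other well-known targets were nearer to 0: the glucose carriers Slc2a1 and Slc2a3 had log2-fold-changes of -0.21 and -0.08, and Kdm3a and Pfkfb4 had 0.12 and 0.18.

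The genes of the HIF proteins and their partners gave no such shift. Of 8 regulators, 0 passed the limits, and the median was 0.04 (-0.03 to 0.06 without any 1 library). Hif1a had 109 and 144 CPM in the control and 125 and 144 CPM after knockdown. Epas1, which encodes HIF-2 alpha, differed by replicate number in both groups, with 37.0 and 79.6 CPM in the control and 41.7 and 87.4 CPM after knockdown, and its groups overlapped. With 1 library left out, the log2-fold-change of Epas1, 0.15 with all, was 0.69 without control replicate 2 and 0.68 without knockdown replicate 1, both past the limits, and -0.39 without control replicate 1 and -0.37 without knockdown replicate 2. Hif3a and Arnt lay below both controls, at -0.36 and -0.20.

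**Figure D3:**
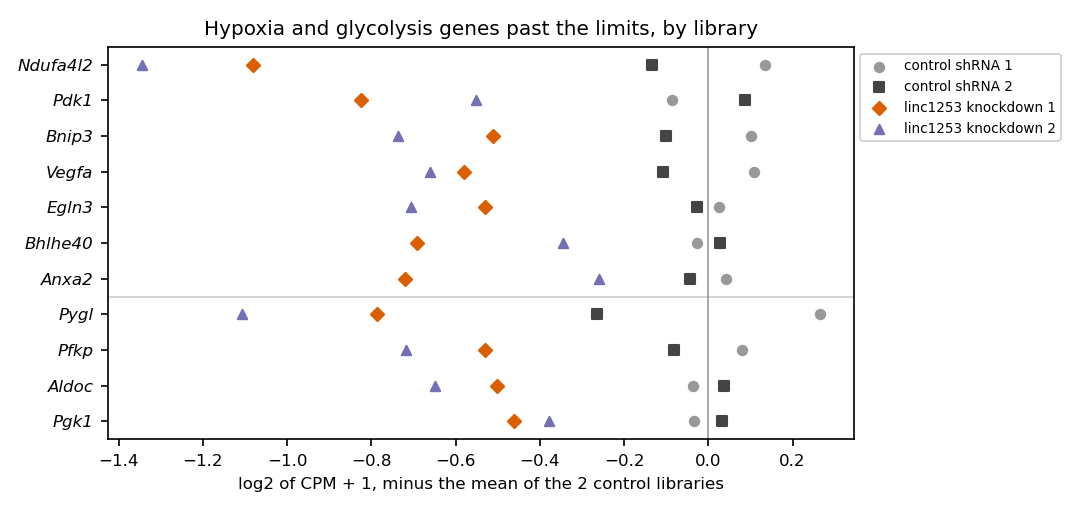
Level of each gene that passed the limits among the HIF targets (upper group) and the glycolytic and glycogen enzymes (lower group), as log2 of CPM plus 1 minus the mean of the control libraries (horizontal axis), 1 point per library. In all 11 genes both knockdown libraries lay below both controls, an order that the limits used to choose them favour. Ndufa4l2 and Pygl changed the most.

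Glycolytic and glycogen enzymes fell in few members but lay lower in most. All 27 were tested, 4 fell, 0 rose, and 21 lay below both controls with 1 above. The median was -0.25 (-0.31 to -0.22 without any 1 library). Pygl, the glycogen phosphorylase named for the liver, had 11.1 and 7.40 CPM in the control and 4.85 and 3.68 CPM after knockdown, a log2-fold-change of -0.95 ± 0.22. Pfkp, the platelet form of phosphofructokinase, the committing step of glycolysis, had 313 and 280 CPM in the control and 204 and 180 CPM after knockdown, with an adjusted p of 0.00231 from DESeq2. Aldoc and Pgk1 had log2-fold-changes of -0.58 and -0.42. That of Pgk1 was -0.38 and not past the p limit without knockdown replicate 1. Abundant enzymes lay lower by less than the limit, with -0.35 for Aldoa, -0.30 for Eno1, -0.25 for Ldha and -0.22 for Gapdh. Without control replicate 2, Aldoa, Hk1, Pfkl, Tpi1 and Eno2 were at -0.47, -0.47, -0.44, -0.46 and -0.50. Without knockdown replicate 1, Aldoa, Hk1, Pfkl, Tpi1 and Pgm2 were at -0.49, -0.47, -0.51, -0.49 and -0.44. All these values exceed a 1.3-fold change, which these genes did not reach with all libraries. The number of enzymes that fell thus depends on the libraries kept. Pygb, the brain form of the phosphorylase, lay above both controls at 0.22. Hk2 and Gys1 belong to this list and to that of the HIF targets, at -0.26 and -0.14.

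The core of the hypoxia response element, ACGTG, was searched in the same promoter windows on both strands. It is short, is also part of the E-box CACGTG, and was found in 25.0% of the windows of tested genes and 19.6% of all windows. Of 25 HIF targets with a window 18 held it, of 26 glycolytic and glycogen enzymes 17, and 29.1% of the tested genes did. As for ATF4, the lists were assembled from known targets. Among the members that fell, 4 of 5 HIF targets and 3 of 4 enzymes with a window held a match. The windows of Bnip3, Egln3 and Pgk1 are printed in the same way to show 1, 2 or overlapping matches. In Bnip3 the matches on the 2 strands overlap in a CACGTG.
Bnip3 (chr7:138909457-138909756, minus strand): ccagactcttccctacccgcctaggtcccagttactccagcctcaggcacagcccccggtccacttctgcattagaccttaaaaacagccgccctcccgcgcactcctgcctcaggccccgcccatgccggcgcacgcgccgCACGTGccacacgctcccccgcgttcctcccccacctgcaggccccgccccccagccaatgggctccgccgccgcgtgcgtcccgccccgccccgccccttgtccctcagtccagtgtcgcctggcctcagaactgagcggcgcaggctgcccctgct
Egln3 (chr12:54203825-54204124, minus strand): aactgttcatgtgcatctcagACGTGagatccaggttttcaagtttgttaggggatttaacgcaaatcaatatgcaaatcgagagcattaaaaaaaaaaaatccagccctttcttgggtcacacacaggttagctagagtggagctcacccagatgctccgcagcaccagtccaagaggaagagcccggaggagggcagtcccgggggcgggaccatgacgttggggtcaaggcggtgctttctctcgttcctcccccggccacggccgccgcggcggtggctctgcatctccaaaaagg
Pgk1 (chrX:106186850-106187149, plus strand): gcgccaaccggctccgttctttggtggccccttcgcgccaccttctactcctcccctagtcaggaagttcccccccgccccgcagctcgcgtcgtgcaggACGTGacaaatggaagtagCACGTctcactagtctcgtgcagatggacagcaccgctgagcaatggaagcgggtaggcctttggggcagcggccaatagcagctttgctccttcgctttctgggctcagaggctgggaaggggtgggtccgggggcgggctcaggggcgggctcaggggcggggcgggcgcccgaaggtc
The matches began at -108 and -107 in Bnip3, at -229 in Egln3 and at -150 and -131 in Pgk1.

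Together, the 4 lists on ATF4 and amino acids hold 74 tested genes, 0.552% of all, and they held 9 of the 28 genes that DESeq2 called as downregulated and 0 of the 22 upregulated genes. The lists on HIF and glycolysis hold 56 tested genes, 0.418% of all, and held 5 of the 28 and 0 of the 22. The lists were drawn up with earlier results of these libraries known, so that these shares are a description.

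Chaperones and the unfolded protein response of the endoplasmic reticulum (ER) had a median of the opposite sign to that of the ATF4 targets. Of 22 genes, all tested, 0 rose and 2 fell, but 10 lay above both controls and 4 below, and the median was 0.11 (0.09 to 0.15 without any 1 library). Hspa5, the main chaperone of the ER, had 532 and 561 CPM in the control and 692 and 624 CPM after knockdown, which at 0.27 ± 0.10 was below the 1.3-fold limit. Dnajb9, Dnajb11 and Pdia3 had values of 0.28, 0.24 and 0.24, and lay above both controls. The sensors of the response changed little, with 0.01 for Eif2ak3, which encodes PERK, -0.04 for Ern1, 0.03 for Atf6 and -0.04 for Xbp1. The members that fell were Manf, a secreted factor of stressed ER, with 90.6 and 93.0 CPM in the control and 57.2 and 64.9 CPM after knockdown, and Sdf2l1, with 44.0 and 30.9 CPM against 28.3 and 22.5 CPM. Manf had an adjusted p of 0.0113 from DESeq2. Sdf2l1 did not pass the limits without control replicate 1 (-0.28) or knockdown replicate 2 (-0.37).

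On the scale of log2 of CPM plus 1, which weighs low genes less, the largest rise of all tested genes was that of Sall3 (ENSMUSG00000024565), a zinc-finger transcription factor of the spalt family. It had 7.84 and 8.13 CPM in the control and 23.5 and 21.5 CPM after knockdown, 2.82 times as much on average. The groups did not overlap and differed by 1.39 ± 0.12 on the log2 scale. The adjusted p was 1.32e-09 from DESeq2, 0.265 from limma and 0.227 from edgeR. Among neural ectoderm genes, the list in which Sall3 was placed, 8 of 15 were tested and it was the only member past the limits. Its relatives Sall1, Sall2 and Sall4 had log2-fold-changes of 0.20, 0.10 and 0.09, and none passed the limits.

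**Figure D4:**
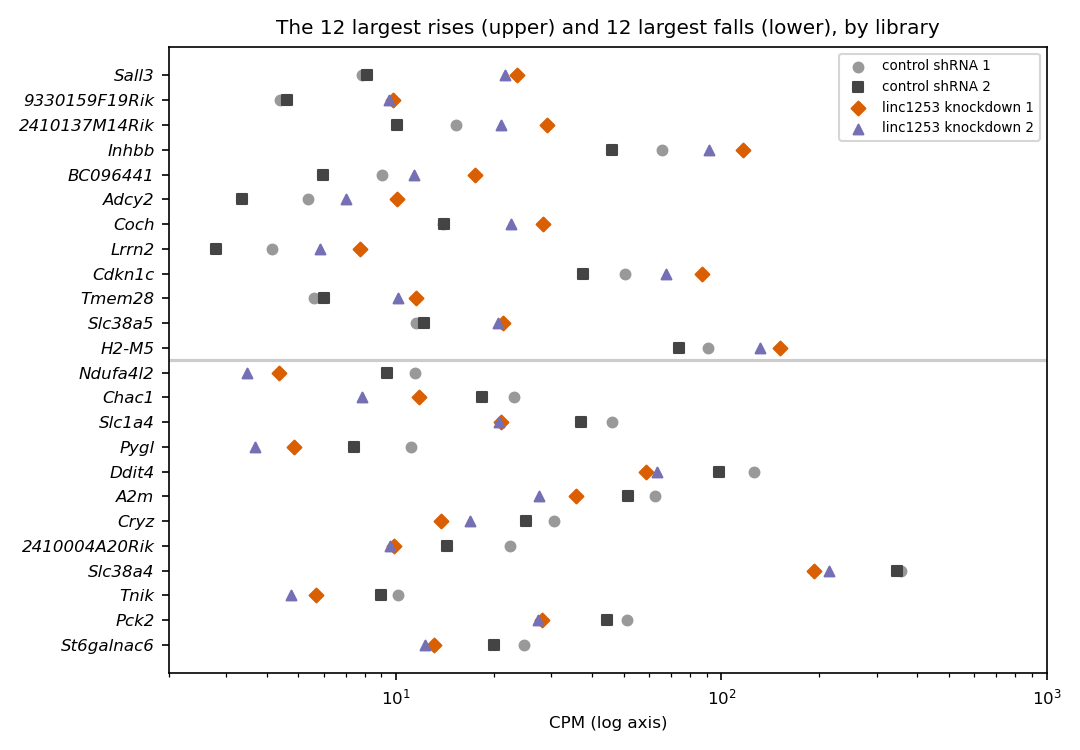
CPM (horizontal log axis) in the 4 libraries of the 12 genes with the largest rises (upper) and the 12 with the largest falls (lower), among named genes with a mean of at least 5 CPM and no overlap between the groups, which the choice itself requires. Sall3 heads the rises with 7.84 and 8.13 CPM in the control and 23.5 and 21.5 CPM after knockdown.

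The next rises were of genes of mixed function. 9330159F19Rik had 4.38 and 4.60 CPM in the control and 9.74 and 9.52 CPM after knockdown. 2410137M14Rik had 15.3 and 10.1 CPM against 29.1 and 21.0 CPM, and H2-M5, a non-classical class I histocompatibility gene, had 90.6 and 74.0 CPM against 151 and 131 CPM. These 2 genes are neighbours on the minus strand of chromosome 17, at chr17:37114646-37118182 and chr17:37121006-37126482 in NCBIM37. Cdkn1c, the imprinted cell cycle inhibitor p57, had 50.5 and 37.6 CPM in the control and 87.1 and 67.4 CPM after knockdown, with an adjusted p of 0.00740 from DESeq2. Slc38a5, a glutamine carrier, had 11.5 and 12.1 CPM against 21.3 and 20.6 CPM. Coch, Adcy2, Lrrn2, Tmem28 and BC096441 completed the 12, with log2-fold-changes between 0.80 and 0.85. Inhbb, also one of the 12, is described with its pathway.

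Of the 12 largest falls, Ndufa4l2, Chac1, Slc1a4, Pygl, Ddit4 and Pck2 belong to the lists above. Slc38a4, an imprinted carrier of neutral amino acids, had 356 and 346 CPM in the control and 192 and 215 CPM after knockdown, and the lowest adjusted p among the falls, 2.76e-06 from DESeq2. The groups of Slc38a4 were much farther apart than the libraries inside each. A2m, a protease inhibitor of the plasma, had 62.2 and 51.7 CPM against 35.6 and 27.5 CPM. Cryz, a quinone reductase, had 30.5 and 25.0 CPM against 13.7 and 16.9 CPM. St6galnac6, a sialyltransferase, 2410004A20Rik and the kinase Tnik had log2-fold-changes of -0.77, -0.82 and -0.77. By definition the groups did not overlap in any of these 24 genes.

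Genes of the Nodal and activin pathway, which holds the epiblast in the pluripotent state and patterns the embryo, were higher. Of 20 listed genes, 18 were tested, 4 rose and 0 fell, 8 lay above both controls and 1 below, and the median was 0.15 (0.13 to 0.24 without any 1 library). The 4 that rose were ligands or antagonists. Inhbb, the subunit of activin B, had 65.6 and 46.0 CPM in the control and 116 and 91.4 CPM after knockdown, a log2-fold-change of 0.90 ± 0.19 with an adjusted p of 0.00231 from DESeq2. Lefty1, a secreted antagonist and target of Nodal, had 19.7 and 20.7 CPM against 39.1 and 26.9 CPM. The rise of Lefty1 was larger in knockdown replicate 1, and without it the value of 0.40 did not pass the p limit. Nodal itself had 42.5 and 44.6 CPM in the control and 62.9 and 52.9 CPM after knockdown, a log2-fold-change of 0.40, which was 0.36 without control replicate 1 and 0.28 without knockdown replicate 1, not past the limits in either. Gdf3 had 40.0 and 45.5 CPM against 55.4 and 58.1 CPM, and lost the limits without control replicate 1 (0.31) and knockdown replicate 2 (0.37). The receptors Acvr1b, Acvr2a and Acvr2b had -0.15, 0.21 and 0.16, and the co-receptor Tdgf1 -0.15. Smad2, Smad3 and Smad4, the signal transducers, lay between 0.02 and 0.14.

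Formative and primed state genes, which rise as ES cells leave the naive state, split. Of 15 listed genes, 13 were tested, 3 rose and 1 fell, and the median was 0.10 (0.09 to 0.21 without any 1 library). Zic2 had 42.7 and 35.9 CPM in the control and 67.9 and 56.1 CPM after knockdown, and an adjusted p of 0.0233 from DESeq2. Foxd3 had 27.5 and 24.4 CPM against 49.9 and 34.2 CPM, and it lost the p limit without knockdown replicate 1 (0.39). In the other direction, Otx2, a leading factor of the formative state, had 30.4 and 32.9 CPM in the control and 23.2 and 21.97 CPM after knockdown, a log2-fold-change of -0.47 ± 0.11. Dnmt3b had 259 and 371 CPM against 265 and 282 CPM, and its groups overlapped. Its log2-fold-change of -0.18 was -0.44 and past the limits without control replicate 1. Fgf5 and Pou3f1 stayed below 1 CPM in all libraries. Among the naive factors, Klf4 had 226 and 208 CPM in the control and 246 and 269 CPM after knockdown, at 0.25 below the limit.

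Trophectoderm genes, of the lineage that forms the placenta, were lower. Of 17 listed genes, 14 were tested, 3 fell and 0 rose, 8 lay below both controls and 0 above, and the median was -0.19 (-0.22 to -0.11 without any 1 library). Tcfap2c, the older symbol of Tfap2c and a transcription factor also of germ cells and naive ES cells, had 52.7 and 49.7 CPM in the control and 30.9 and 30.7 CPM after knockdown. This was a log2-fold-change of -0.71 ± 0.10, with an adjusted p of 0.00121 from DESeq2. The keratin Krt19 and the homeobox gene Esx1 had log2-fold-changes of -0.69 and -0.56, on levels below 7 CPM in all libraries, and Krt19 was at -0.48 and not past the p limit without knockdown replicate 1. The defining factors Cdx2 and Elf5 stayed below 1 CPM in every library. The summed level of the list was 188 and 182 CPM in the control and 145 and 148 CPM after knockdown.

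Genes of the two-cell-like state, which a small share of ES cells passes through, were higher. Of 11 listed genes, 9 were found and tested, 5 rose, 8 lay above both controls and 0 below, and the median was 0.45 (0.34 to 0.55 without any 1 library). Zscan4d had 29.6 and 25.8 CPM in the control and 43.0 and 38.3 CPM after knockdown, and Zscan4f had 22.1 and 19.2 CPM against 30.5 and 29.5 CPM. Zscan4c, Usp17l5 and Gm13119 had log2-fold-changes of 0.45, 0.53 and 0.48. The Zscan4 and Usp17l genes are near-identical copies, and reads could align at up to 10 locations, so that their values are uncertain and not independent. Without knockdown replicate 1, Zscan4c (0.36), Usp17l5 (0.51) and Gm13119 (0.34) did not pass the limits, and without control replicate 2 neither Usp17l5 (0.44) nor Gm13119 (0.40) did. DESeq2 called 0 of the 9, but it gave Zfp352, Tdpoz4, Dub1 and Gm13119 no adjusted p and could not call them.

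DNA replication genes shifted slightly. Of 37 genes, all tested, 0 passed the limits, 15 lay below and 3 above both controls, and the median was -0.06 (-0.10 to -0.06 without any 1 library). The lowest was Pold1, the catalytic subunit of polymerase delta, with 119 and 111 CPM in the control and 93.4 and 90.0 CPM after knockdown. Of 15 primitive streak genes 4 were tested, with a median of 0.18 (0.14 to 0.17 without any 1 library) and 0 past the limits, and 11 stayed at or below 1 CPM in every library.

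**Figure D5:**
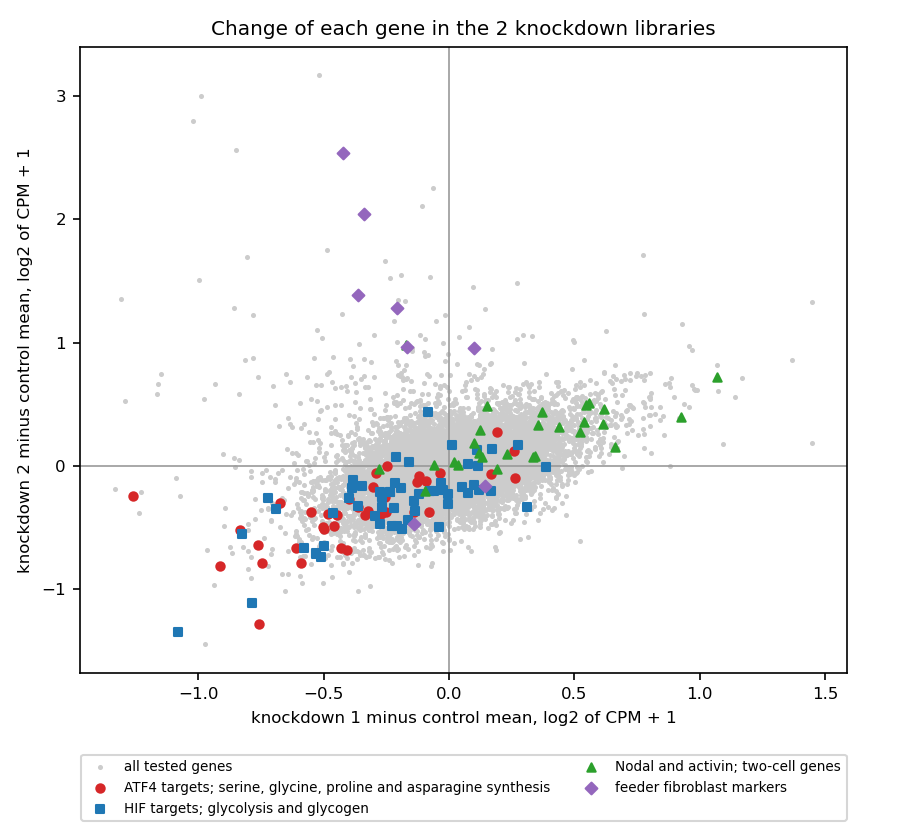
Difference of each tested gene from the mean of the control libraries on the scale of log2 of CPM plus 1, in knockdown replicate 1 (horizontal axis) and knockdown replicate 2 (vertical axis), with all 13407 genes in grey. The ATF4 targets with the serine, glycine, proline and asparagine enzymes (red) and the HIF targets with the glycolytic enzymes (blue) lie mostly in the lower left quadrant, the Nodal pathway with the two-cell-like genes (green) mostly in the upper right, and 6 of the 8 fibroblast markers (purple) are high on the vertical axis alone.

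Gata6, Bmp1, Igf2 and Hand1 are developmental genes that the study also assayed in linc1253-depleted cells. It selected Gata6 and Bmp1 among genes that its own sequencing called upregulated both in these knockdown libraries and after Pontin depletion. By quantitative RT-PCR it then reported Gata6 and Bmp1 as increased and Igf2 and Hand1 as unchanged. That measure is unlike the one here, and the study's sequencing calls came from a combined p of other tests. None of these genes passed the limits in the fit of all 4 libraries without a replicate block, and 3 passed them with it. Gata6, a factor of the primitive endoderm, had 0.415 and 0.946 CPM in the control and 0.438 and 2.32 CPM after knockdown, a log2-fold-change of 0.40 ± 0.40, which was 1.00 and past the limits without knockdown replicate 1. Bmp1, a protease that processes collagens, had 2.86 and 2.97 CPM in the control and 3.20 and 5.48 CPM after knockdown, at 0.41 ± 0.23, and 0.73 and past the limits without knockdown replicate 1. Both genes were thus highest in the library with the highest fibroblast and primitive endoderm markers, whose part in the result was not tested. Gata6 is itself one of the primitive endoderm markers, so that for this gene the 2 observations are not separate. It was above 1 CPM in that library alone and was tested only through it. Igf2 had 32.1 and 26.4 CPM against 26.3 and 25.0 CPM, and Hand1 had 5.35 and 3.23 CPM against 2.86 and 2.76 CPM, with log2-fold-changes of -0.17 and -0.44. That of Hand1 was -0.74 and past the limits without control replicate 2.

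Polycomb repressive complex 2, whose subunit Ezh2 the study examined as a partner of linc1253, had 11 subunits tested. Their median log2-fold-change was -0.11 (-0.12 to -0.05 without any 1 library), with 1 sign in all 4 pairs, but it rested on 1 library. Below both controls lay 6 of the 11 subunits, and above both lay 1. Suz12 was the only one to pass the limits, with 246 and 278 CPM in the control and 165 and 215 CPM after knockdown, and without knockdown replicate 1 its value of -0.28 did not. Ezh2, the catalytic subunit, had 150 and 170 CPM in the control and 151 and 161 CPM after knockdown, a log2-fold-change of -0.03 ± 0.10. Pontin, listed as Ruvbl1, had 166 and 186 CPM against 188 and 148 CPM, and Reptin, its partner Ruvbl2, was at -0.19 and not past the limits. The 8 tested genes next to linc1253 on chromosome 10 lay between -0.05 and 0.33, and 0 passed the limits.

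The same lists can be set beside the Pontinf/f; CreER ES cells of the series, in which OHT deletes Pontin. There the untreated cells (WT) and the cells at 3 and 4 days after OHT have 1 library each, the 2 OHT libraries share the WT library, and the values have no replicate check. They come from a table normalized apart, with no library in common with the knockdown. The median log2-fold-change of the enzymes of serine, glycine, proline and asparagine synthesis was -0.57 and -0.36 at the 2 times, that of the glycolytic enzymes -0.64 and -0.31, that of the HIF targets -0.46 and -0.29, and that of the ATF4 targets -0.27 and -0.12. The tRNA synthetases had -0.25 and -0.14, the Nodal and activin pathway 0.12 and 0.14, and the primitive streak genes 0.58 and 1.022. In these 7 lists both signs were those after linc1253 knockdown. The primitive streak list has only 4 tested members, and Eomes, the most abundant of them, went the other way with -0.67 and -0.24. Lists that did not move after linc1253 knockdown also moved here, such as cholesterol synthesis with -0.68 and -0.51. Markers of other cells moved by more in the same libraries, with medians of 2.84 and 3.06 for the feeder fibroblast markers and 1.53 and 1.78 for the extracellular matrix genes, and their part in these values was not tested. In 4 lists that moved after linc1253 knockdown, at least 1 sign differed from the sign there: 0.25 and 0.52 for trophectoderm genes, -0.12 and 0.03 for the ER chaperones and unfolded protein response, 0.11 and -0.06 for formative and primed genes, and -0.08 and 0.02 for DNA replication. No gene of the two-cell-like list was above 0.307 CPM in these 3 libraries, and no comparison is made for it. By gene, Ndufa4l2 had -2.86 and -2.22, Bnip3 -2.35 and -1.98, Sall3 1.21 and 0.74, and Chac1 -0.42 and -0.50. Trib3, which fell after linc1253 knockdown, had -0.04 and 0.01 there, and Lefty1, which rose, had -1.67 and -0.80.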

How the data were processed

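Poly(A) mRNA of the 4 libraries was sequenced by the study. After removal of adapters and low-quality ends, reads were aligned with TopHat to NCBIM37, at up to 10 locations each, and assigned to gene features by HTSeq. The authors deposited these counts as CPM normalized by TMM in edgeR. The deposited CPM were whole multiples of 1 read within 0.01 read for 100% of the values, which gave the reads for the count tests.

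Genes above 1 CPM in at least 1 library were fitted by limma 3.58.1 with an intensity trend on log2 of CPM plus 1, a scale that understates the change of low genes, 2 libraries against 2, with Benjamini-Hochberg adjustment over all tested genes. Alternatives were edgeR 4.0.16 (quasi-likelihood) and DESeq2 1.42.0 on the reads, another pseudocount, filter, rescaling, fold limit or trend, the replicate block, and leaving out each library. R 4.3.3, Python 3.11.15, pandas 2.3.3 and matplotlib 3.10.9 were used, and the fits were tested on simulated data.

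Of 22713 genes 22337 had a symbol, and 870 of 877 entries of the 42 lists were found by symbol or by an older symbol in RefSeq. The members and lists were chosen with earlier results of these data known. A list changed the same way when its median had 1 sign in all 4 pairs, and rested on 1 library when leaving that library out took the median under 50% of its value or turned its sign. Named genes were the 12 largest rises and the 12 largest falls with a mean of at least 5 CPM and no overlap, up to 6 members past the limits per list, and genes that define a list or that the study names. Values of other members are given to show the spread of a list. Gene coordinates are those of NCBIM37, and promoter windows those of RefSeq for GRCm38.p6. The ChIP-seq libraries, the hairpin sequence and the comparison of Oct4 depletion were not used here. Values of some list members are not reported here.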

Additional observations from a re-analysis of the deposited data

How the results depend on the processing

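With 2 libraries per group, calls at an adjusted p depended on the test. DESeq2 called 22 upregulated and 28 downregulated genes, and limma with the replicate number as a block called 933 and 1027. The labels do not say whether a replicate number marks a shared infection or day, so that this pairing was not used for the reported values. Same-numbered libraries deviated together, with a correlation of 0.673 across genes, and the SDs of their log2 differences, 0.228 and 0.224, were below those within a group. Leaving out 1 library at a time gave 0 to 14 upregulated and 0 to 3 downregulated genes with limma, the most without knockdown replicate 1. All other alternatives gave 0 in both directions. Of the genes past the limits, 3 added to the CPM left 163 upregulated and 162 downregulated genes, a filter at a mean of 5 CPM 166 and 183, a limit of 1.5-fold 82 and 64, and a limit of 2-fold 5 and 2, stricter by construction. Leaving out 1 library gave 285 to 455 upregulated and 272 to 530 downregulated genes, the most without control replicate 2, and the cause was not tested. The other alternatives kept both counts within 1.5 times.

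Of 83 named genes past the limits, at the 1.3-fold limit 49 passed them under every alternative, 34 lost them without some library and 8 under another setting. Members given only to show the spread of a list, such as Vldlr and Anxa2, are not in these counts. With the block, Gata6, Bmp1 and Hand1 passed the limits. Fits without 1 library leave 1 library in a group, which is assumed to vary like the other group, and are unbalanced for the replicate number. Among the 12 lists of the report, no median turned sign under any of these alternatives. For the fits without 1 library this follows from the rule by which the 12 were chosen, and is no check. The smallest changes that 2 libraries per group can show are limited by the spread between libraries, with SDs of the log2 difference between replicates of 0.265 in the knockdown and 0.272 in the control.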

Other observations

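Several lists held members past the limits without moving as a group. Among 19 germline genes, 3 fell and 0 rose, with a median of -0.14 and mixed signs in the 4 pairs. Mael, which protects germ cells from transposons, had 39.0 and 36.9 CPM in the control and 27.0 and 26.0 CPM after knockdown. Tex11 (-0.43) was at -0.36 and not past the limits without knockdown replicate 2, and Taf7l (-0.41) was past them neither without control replicate 1 (-0.31) nor without knockdown replicate 2 (-0.28). Of 10 genes of metal handling, the metallothioneins Mt1 and Mt2 fell and 0 rose. Mt1 had 84.6 and 87.7 CPM in the control and 54.5 and 65.5 CPM after knockdown, and Mt2 lost the limits without control replicate 1 (-0.27) or knockdown replicate 2 (-0.30). Among 17 genes of fatty acid synthesis, the desaturase Scd2 alone passed the limits, with 397 and 464 CPM in the control and 295 and 339 CPM after knockdown, and it lost them without control replicate 2 (-0.33) or knockdown replicate 1 (-0.34). Cholesterol synthesis, which responds to SREBP2, had 24 genes tested, 0 past the limits and a median of 0.01.

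In the MYC network, Myc had 26.7 and 37.2 CPM in the control and 40.7 and 49.7 CPM after knockdown and rose, while Mycl1 and Mlxipl fell by 0.47 and 0.50 on the log2 scale. None of the 3 passed the limits without control replicate 1 (0.27, -0.36 and -0.31) or without knockdown replicate 2 (0.36, -0.41 and -0.44). Gbx2, a target of LIF signalling, had 23.8 and 26.1 CPM against 38.9 and 42.8 CPM, with an adjusted p of 0.00687 from DESeq2, and Notum, a secreted inhibitor and target of Wnt, had 2.68 and 4.04 CPM against 6.11 and 6.27 CPM. Of the other genes that DESeq2 called as upregulated, the ligands Pdgfa and Pdgfc had 22.8 and 21.8 against 36.8 and 37.9 CPM and 19.7 and 22.1 against 35.7 and 35.4 CPM. Rarg, a retinoic acid receptor, had 107 and 109 against 163 and 162 CPM. These 3 were named after their values were seen.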
